A study of Homo sapiens with 9 samples.

Results

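Human chromosome 19 carries an unusual number of zinc finger genes, most of them in clusters that arose by tandem duplication. The genes described here are those with a symbol of ZNF and a number on that chromosome, reached by array probes through the RefSeq accession of each probe, with antisense and divergent transcripts left out. The gene table held 273 such genes, and 232 of them had at least 1 probe, 313 probes in all, out of 35181 genes and unnamed transcripts on the array. Of the 232, 73 lie on the short arm (19p) and 159 on the long arm (19q). Each gene was represented by its probe with the highest mean signal over the 9 arrays.

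Most proteins of this family join an array of C2H2 zinc fingers, which read DNA, to a KRAB domain. The KRAB domain recruits TRIM28, which brings in the histone methyltransferase SETDB1 and HP1 proteins and so spreads repressive chromatin, often over retroelements. The genes of these clusters are themselves covered by such chromatin at their finger-coding ends in many cell types. SMCHD1 is a chromatin protein of the SMC family, known for its part in silencing on the inactive X chromosome and at clustered genes.

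All samples were HEK293 cells, which come from human embryonic kidney, in which an shRNA had been brought in with a retroviral vector and kept under puromycin selection as a stable line. One group carried shRNA 3 against SMCHD1 (KD3), one carried shRNA 4 against the same transcript (KD4), and the control group carried shRNA NC5 (CTL). All groups thus share the infection and the selection, each knock-down rests on 1 hairpin, and the lines had no further treatment. Each group was measured on 3 one-color Agilent arrays, called biological triplicates in the methods; whether these came from separate infections is not given in the sources used here, so the p-values may measure only the spread between these samples. An array reads the RNA of a whole culture, so that a shift in all cells and a larger shift in some of them cannot be told apart.

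Values are log2 signals, quantile normalized over the 9 arrays, and a fold change is a difference of group means on that log2 scale. Testing required that the probe exceeded background clearly (the scanner software's flag) on all arrays of 1 or more groups. A gene is said to have risen or fallen when the Benjamini-Hochberg adjusted p of the limma fit, taken over all 32276 tested probes, was under 0.05. A call needed in addition a fold of at least 1.8. Per array, 75.1% to 79.8% of probes were above background by that flag, replicate arrays correlated at 0.995 or more, and no spot was saturated. The brightest SMCHD1 probe fell by 0.97 in KD3 (standard error 0.0897, adjusted p = 0.000214) and by 1.53 in KD4 (standard error 0.0897, adjusted p = 1.81e-05), leaving 51.0% and 34.6% of the CTL signal. All 6 knock-down arrays lay below all 3 CTL arrays (exact two-sided permutation test, p = 0.0119, the smallest this design allows). All 7 genes of an HEK293 marker list were well above background on all 9 arrays. Of 9 genes that mark blood, liver, endothelium or muscle, 7 were also well above background on all 9 arrays, PECAM1 on none and ALB on 1, and the log2 of the summed signal of that list ran from 10.45 to 10.64 in CTL, 10.35 to 10.44 in KD3 and 10.53 to 10.65 in KD4. The part of these signals in the results was not tested.

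Of the 232 zinc finger genes, 219 were tested, 68 on 19p and 151 on 19q, and 216 of those were well above background on all 9 arrays. The 13 that were too dim were ZNF560, ZNF491, ZNF439, ZNF90 and ZNF681 on 19p, and ZNF229, ZNF473CR, ZNF610, ZNF534, ZNF702P, ZNF415, ZNF665 and ZNF671 on 19q. Most of the family thus gave a readable signal in these cells.

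More zinc finger genes of chromosome 19 rose than fell in each knock-down by limma, by small amounts. In KD3, 43 of 219 rose (19.6%) and 10 fell (4.57%), where 9.48% of all 26856 tested genes rose and 10.4% fell. In KD4, 50 rose (22.8%) and 10 fell (4.57%), where 13.4% of all tested genes rose and 14.7% fell. Over the 219 genes the median log2 fold change was 0.121 (KD3) and 0.145 (KD4). Over all tested genes it was 0.00909 and 0.0438. KD3 and KD4 were set against the same CTL arrays, so that these counts are not independent of each other. With the unmoderated test of the methods, adjusted in the same way, 1 gene was higher and 1 lower in KD3, and 13 were higher and 3 lower in KD4. By limma, 33 were higher in KD4 without KD4 replicate 1 and 31 without KD4 replicate 3, and 28 were higher in KD3 where each pair of groups was fitted alone. Few of these shifts reached the fold threshold. It was passed upward by 1 gene in KD3, beside 1.15% of all tested genes, and by 2 in KD4, beside 1.43%. Downward it was passed by 0 zinc finger genes in either knock-down by limma, beside 2.18% of all tested genes in KD3 and 3.15% in KD4, although 10 fell in each without the fold threshold.

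The 2 genes that passed both thresholds were ZNF682 and ZNF347. ZNF682 sits in the 19p cluster next to the centromere. Its log2 signal was 8.14, 8.14 and 8.27 on the CTL arrays, 9.08, 8.69 and 8.69 on the KD3 arrays and 9.20, 9.22 and 9.27 on the KD4 arrays. Every knock-down array lay above every CTL array, and the KD4 arrays lay above the KD3 arrays as well. It rose by 0.64 in KD3 (1.56-fold, standard error 0.109, adjusted p = 0.00447) and by 1.05 in KD4 (2.07-fold, standard error 0.109, adjusted p = 0.000307), so that only KD4 passed the fold threshold. The direct difference of KD4 over KD3 was 0.41 (adjusted p = 0.0906), which did not pass the test. A second ZNF682 probe rose by 0.78 in KD3 (adjusted p = 0.00116) and by 1.43 in KD4 (adjusted p = 4.2e-05).

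ZNF347, on 19q, had the largest fold change of the tested zinc finger genes in each knock-down, from a signal near background. The log2 signal was 3.67, 2.13 and 4.53 on the CTL arrays, of which 2 were well above background, 5.39, 5.09 and 5.24 in KD3, and 5.59, 5.58 and 5.62 in KD4. The knock-down arrays were closely grouped while the CTL arrays spread over more than the size of the change (SD 1.22, n = 3). It rose by 1.797 in KD3 (3.47-fold, standard error 0.487, adjusted p = 0.0327) and by 2.15 in KD4 (4.44-fold, adjusted p = 0.0118). With normexp background correction the same probe gave 0.48 in KD3 (adjusted p = 0.00104) and 0.61 in KD4 (adjusted p = 0.000123), and without CTL replicate 2 the KD3 value was 1.14. In KD3 it no longer passed without KD3 replicate 1, 2 or 3 or without CTL replicate 1 (adjusted p = 0.0893, 0.0704, 0.0812 and 0.0617). Its other probe rose by 0.89 in KD3 (adjusted p = 0.00279) and by 1.36 in KD4 (adjusted p = 0.000258). Both probes were higher in the knock-downs, while the size of the fold depended on how background was treated.

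**Figure D1:**
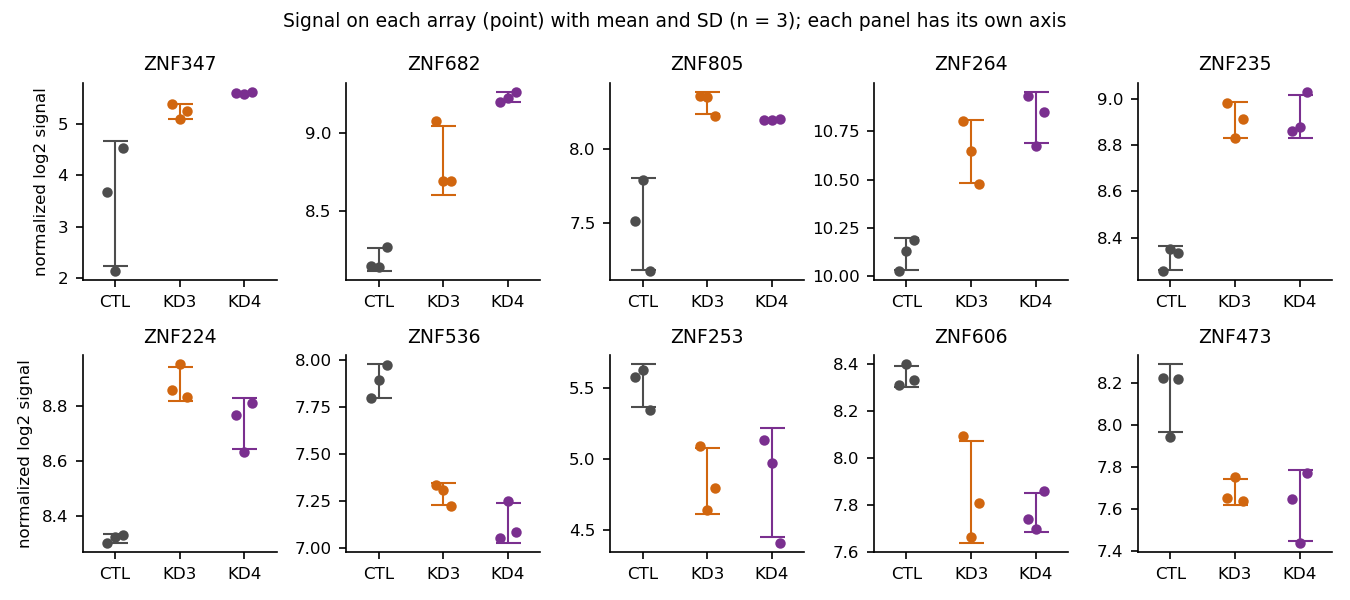
Normalized log2 signal of 10 zinc finger genes of chromosome 19 on the 3 arrays of each group (points), with the mean and SD of each group (n = 3) and a separate vertical axis for each gene. The CTL points of ZNF347 spread from 2.13 to 4.53, while the points of ZNF682, ZNF805, ZNF264, ZNF235 and ZNF224 are higher, and those of ZNF536, ZNF253, ZNF606 and ZNF473 lower, on every knock-down array than on any CTL array.

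The arms differed in their medians. On 19p, 8 of 68 genes rose (11.8%) and 3 fell in KD3, and 10 rose (14.7%) and 2 fell in KD4, with medians of 0.0753 and 0.0838. These shares of risen genes are near those of all tested genes (9.48% and 13.4%). On 19q, 35 of 151 rose (23.2%) and 7 fell in KD3, and 40 rose (26.5%) and 8 fell in KD4, with medians of 0.139 and 0.177. No test of the difference between arms was run, since genes of a cluster are not independent replicates. The medians of single arrays, each taken relative to the CTL mean of every gene, were 0.116, 0.0439 and 0.00916 on the KD3 arrays for 19p and 0.225, 0.138 and 0.115 for 19q. On the KD4 arrays they were 0.109, 0.107 and 0.0437 for 19p and 0.172, 0.148 and 0.158 for 19q. The CTL arrays ran from -0.0309 to 0.032 for 19p and from -0.0357 to 0.0426 for 19q. The knock-down arrays thus lay above all CTL arrays on 19q, whereas 1 KD3 array fell among the CTL values on 19p. The arrays came on 2 slides, each holding all 3 groups. Slide 2 held CTL replicate 1, KD4 replicate 1 and KD3 replicates 1 and 3, and slide 1 held the other arrays. Within slide 2 the 19p median was 0.1464 in KD3 and 0.1608 in KD4, and within slide 1 it was 0.0197 and 0.0315. The higher values of slide 2 are relative to CTL replicate 1 alone, the lowest CTL array for 19p (-0.0309). A difference between slides and a deviation of that array cannot be told apart here. For 19q the values were 0.2060 and 0.2050 within slide 2 and 0.1245 and 0.1406 within slide 1.

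Neither zinc finger genes elsewhere nor other genes of chromosome 19 had medians as high as those of the 19q zinc finger genes. The 239 tested ZNF genes on other chromosomes had medians of 0.0101 in KD3 and -0.0129 in KD4. Among them 26 rose (10.9%) and 28 fell (11.7%) in KD3, and 30 rose (12.6%) and 47 fell (19.7%) in KD4. The 970 other tested genes of chromosome 19 had medians of -0.0675 in KD3 and 0.0452 in KD4. Of them 30 rose (3.09%) and 168 fell (17.3%) in KD3, while 124 rose (12.8%) and 142 fell (14.6%) in KD4. Over all tested genes 9.48% rose and 10.4% fell in KD3, and 13.4% and 14.7% in KD4. The other genes on 19p had medians of -0.0643 in KD3 and 0.0617 in KD4, the latter near the 0.0838 of the 19p zinc finger genes. Those on 19q had -0.0748 and 0.0275. The 970 include the 12 zinc finger genes with another symbol given below. On the arrays of KD3 the 970 genes stood at -0.158, -0.0531 and -0.0105, the first being the array on which the zinc finger genes stood highest. Whether that array's profile contributed to the KD3 medians was not tested beyond leaving it out, which gave 0.0382 for 19p and 0.1133 for 19q. The 28 other tested coding genes that lie inside the zinc finger clusters had medians of 0.016 and 0.0195. They include zinc finger genes with another symbol, namely ZFP14, ZFP28, ZFP30, ZFP82, ZIK1, ZSCAN1, ZSCAN18 and ZSCAN22. In KD3, 7.14% of the 28 rose (ZFP82 and ZIK1) and 14.3% fell. In KD4, 14.3% rose (ZFP82, ZIK1, ZSCAN22 and RNF225) and 10.7% fell.

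**Figure D2:**
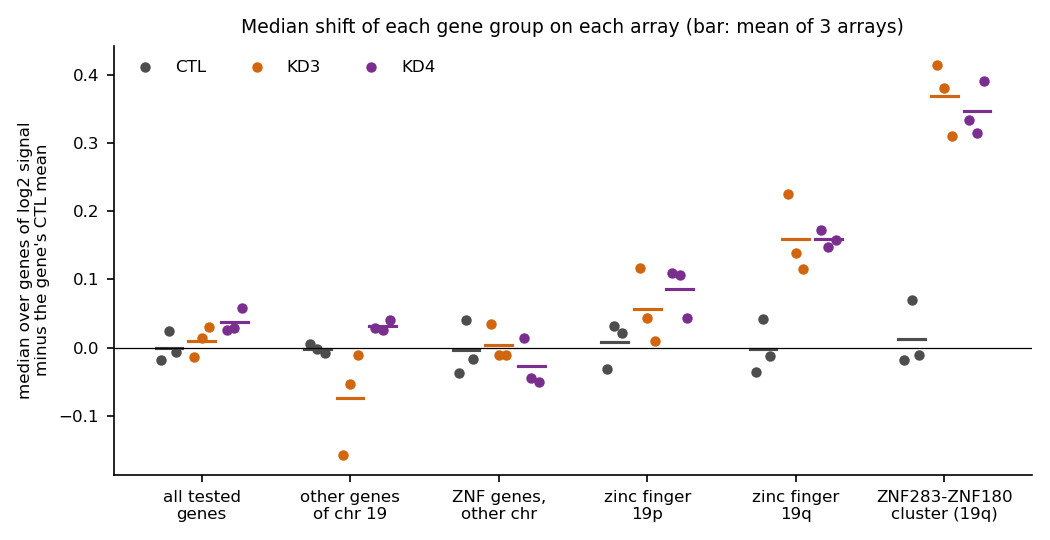
Median, over the genes of each group, of the log2 signal on an array minus the CTL mean of the gene, for each of the 9 arrays (points; bar: mean of the 3 arrays of a group). The ZNF283-ZNF180 cluster stands at 0.31 to 0.414 on the knock-down arrays, 19q at 0.115 to 0.225, and 19p at 0.00916 to 0.116, while the other genes of chromosome 19 reach -0.158 on a KD3 array.

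Most of the zinc finger genes fall into 11 clusters, defined here as runs of at least 5 genes with no more than 5 other coding genes between neighbours and named by their first and last gene. The 21 tested genes outside clusters had medians of 0.0244 in KD3 and -0.00577 in KD4. On 19p the ZNF653-ZNF791 cluster (23 tested) had medians of 0.141 and 0.153, and 4 of its genes rose (17.4%) and 1 fell (4.35%) in each knock-down. The pericentromeric ZNF101-ZNF254 cluster (25 tested), which holds ZNF682 and the primate gene ZNF91, had medians of 0.00759 and 0.0233. In it 2 genes rose in KD3 (8%) and 4 in KD4 (16%), shares near those of all tested genes. Over all tested genes 9.48% rose and 10.4% fell in KD3, and 13.4% and 14.7% in KD4. The ZNF317-ZNF846 cluster (10 tested) had medians of 0.109 and 0.106. In ZNF554-ZNF77 (5 tested) 0 genes passed in either knock-down by limma, with 2 at an unadjusted p under 0.05 in each. Of all 26856 tested genes, 8740 in KD3 and 10729 in KD4 had an unadjusted p under 0.05.

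On 19q, 5 of the 7 clusters had a median above 0.1 in KD4 and 4 in KD3. The ZNF565-ZNF573 cluster (26 tested) had medians of 0.201 and 0.172, with 7 genes rising and 0 falling in KD3 and 6 rising and 1 falling in KD4 by limma. The ZNF577-ZNF331 cluster (31 tested) had 0.167 and 0.172, with 7 and 6 rising and 1 and 0 falling, and the distal ZNF264-ZNF446 cluster (39 tested) had 0.129 and 0.177, with 6 and 11 rising and 3 falling in each. The shares that rose in these clusters were, in the order given, 26.9%, 22.6% and 15.4% in KD3 and 23.1%, 19.4% and 28.2% in KD4. Over all tested genes 9.48% rose and 10.4% fell in KD3, and 13.4% and 14.7% in KD4. At an unadjusted p under 0.05, 14, 12 and 16 genes of these clusters differed in KD3 and 12, 10 and 22 in KD4. Of all 26856 tested genes, 8740 did in KD3 and 10729 in KD4. ZNF542P-ZNF835 (8 tested) stood at 0.0542 and 0.135, ZNF628-ZNF580 (7 tested) at 0.0349 and 0.0562, and ZNF807P-ZNF792 (5 tested), the cluster nearest the centromere on this arm, at -0.0361 and -0.174. The remaining one, ZNF283-ZNF180, had the highest median of the 11 in both knock-downs, 0.346 in KD3 and 0.327 in KD4, and is described in more detail because of these values.

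**Figure D3:**
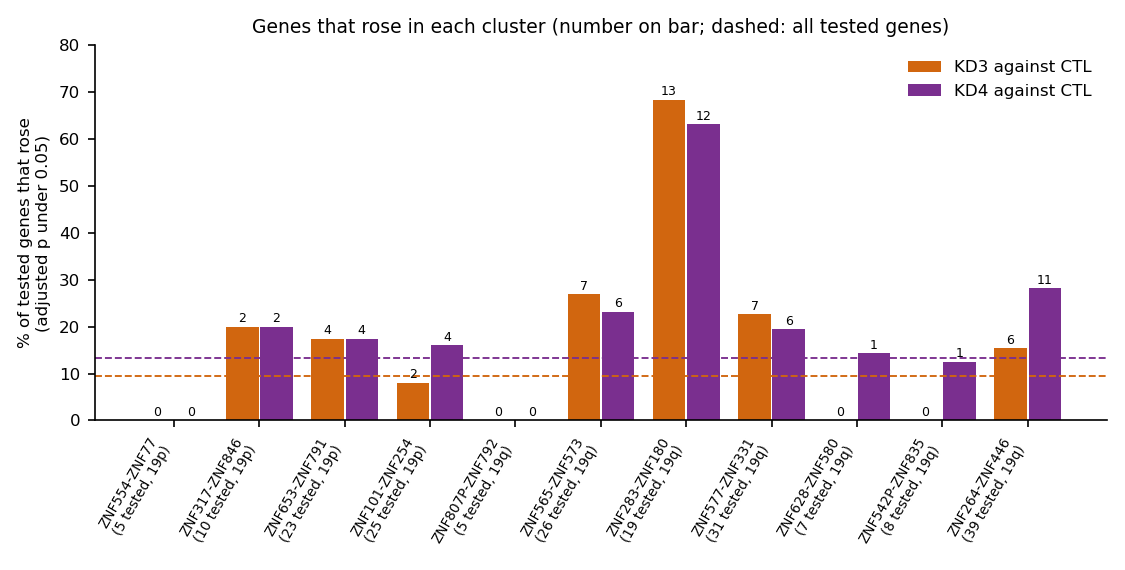
Share of the tested genes of each cluster that rose (adjusted p under 0.05) in KD3 and KD4, in percent, with the number of genes on each bar and the share of all tested genes as dashed lines (9.48% and 13.4%). In the ZNF283-ZNF180 cluster 68.4% and 63.2% of genes rose, against at most 28.2% in any other cluster.

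**Figure D4:**
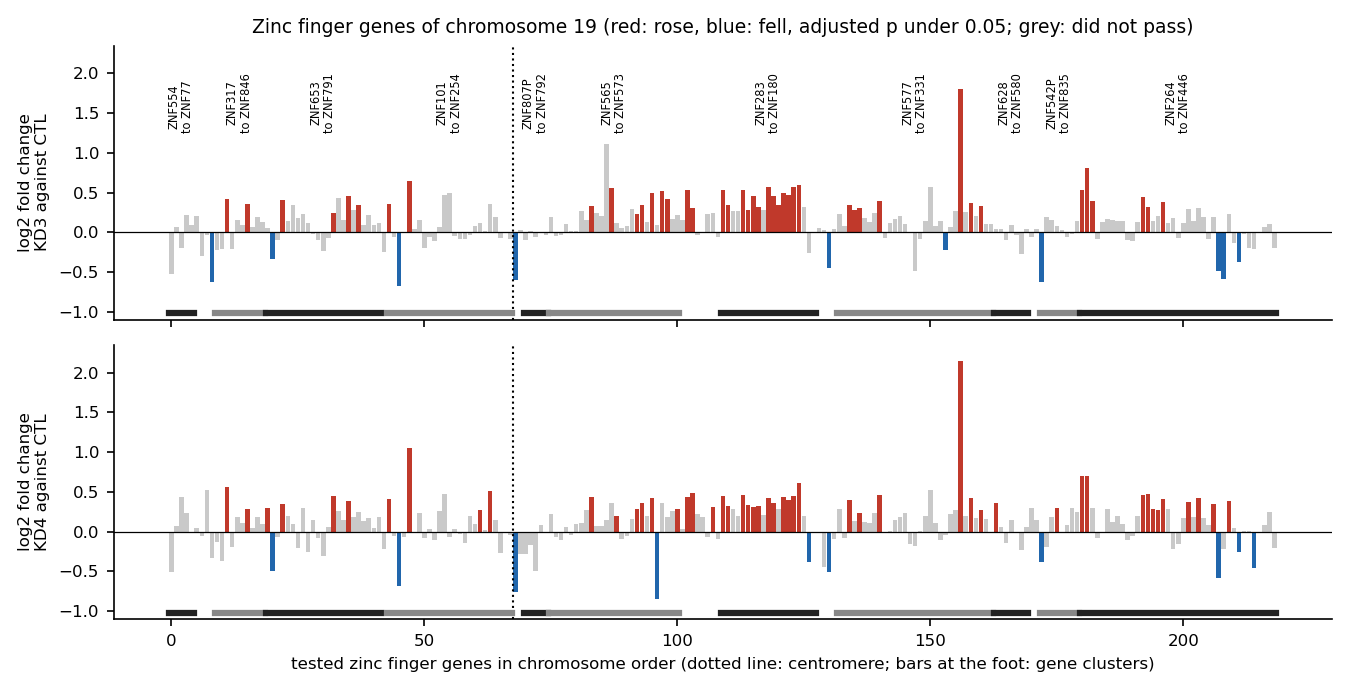
Log2 fold change of the 219 tested zinc finger genes in their order along chromosome 19, for KD3 (upper) and KD4 (lower), with genes that rose in red, genes that fell in blue and the others in grey. The dotted line is the centromere and the bars at the foot mark the 11 clusters; a run of red bars marks the ZNF283-ZNF180 cluster, and the tallest red bar on 19q is ZNF347.

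The ZNF283-ZNF180 cluster holds 21 zinc finger genes and no other coding gene. Of these, 20 had a probe and 19 were tested, ZNF229 being too dim. In KD3, 13 of the 19 rose (68.4%) and 0 fell by limma, beside 9.48% and 10.4% of all tested genes. An unadjusted p under 0.05 was found for 17, beside 8740 of all 26856 tested genes. Those that rose were ZNF283, ZNF404, ZNF155, ZNF230, ZNF222, ZNF223, ZNF224, ZNF225, ZNF234, ZNF226, ZNF227, ZNF233 and ZNF235. In KD4, 12 rose (63.2%), namely these genes other than ZNF234, and 1 fell, beside 13.4% and 14.7% of all tested genes. The medians of single arrays were 0.414, 0.38 and 0.31 in KD3, 0.333, 0.315 and 0.391 in KD4, and -0.0185, 0.0693 and -0.0111 in CTL. All 3 arrays of KD3 lay above all CTL arrays for 16 of the 19 genes, where this held for 18.2% of all tested genes, and all arrays of KD4 did so for 15, where it held for 23.1%. The cluster was picked for its median on these same arrays, and its genes are not independent replicates. These counts thus describe it and add no separate support. Within slide 2 the median was 0.4525 in KD3 and 0.3928 in KD4, and within slide 1 it was 0.3753 and 0.3150. The 132 tested 19q genes outside this cluster had medians of 0.122 and 0.136, with 22 and 28 rising (16.7% and 21.2%).

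By their brightest probes, the genes of the cluster had differences below the fold threshold. ZNF235 had the highest of these fold changes in each knock-down. Its log2 signal was 8.25, 8.35 and 8.33 in CTL, 8.98, 8.83 and 8.91 in KD3 and 8.86, 8.88 and 9.03 in KD4. In KD3 the rise was 0.60 (standard error 0.0762, adjusted p = 0.00114), in KD4 it was 0.61 (adjusted p = 0.000766), and the groups did not overlap. ZNF224, known as a KRAB repressor of the aldolase A gene and as a partner of the Wilms tumor protein WT1, stood at 8.30, 8.32 and 8.33 in CTL, 8.86, 8.95 and 8.83 in KD3 and 8.77, 8.63 and 8.81 in KD4. Its CTL arrays were nearly identical and its 6 knock-down arrays were all higher, by 0.56 in KD3 (standard error 0.0716, adjusted p = 0.00109) and 0.42 in KD4 (adjusted p = 0.00329). ZNF233 rose by 0.57 (adjusted p = 0.00193) and 0.45 (adjusted p = 0.00428), and ZNF155 by 0.53 (adjusted p = 0.00153) and 0.46 (adjusted p = 0.00228). With the unmoderated test of the methods, adjusted, ZNF224 did not pass in KD3 (adjusted p = 0.0691) or KD4 (adjusted p = 0.0897), and over all named genes 33 of the values that passed by limma did not pass by that test. Second probes of ZNF226, ZNF233 and ZNF235 also rose in each knock-down, by 0.43, 0.87 and 0.65 in KD3 and by 0.37, 0.50 and 0.55 in KD4. The 0.87 of the second ZNF233 probe (adjusted p = 0.00337) passed the fold threshold as well.

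Not every gene of the cluster passed. By their brightest probes, ZNF45 (0.27 and 0.29), ZNF221 (0.27 and 0.20), ZNF284 (0.28 and 0.21) and ZNF112 (0.32 and 0.20) had positive fold changes in KD3 and KD4 that did not pass the test, while a second probe of ZNF45 rose by 0.72 in KD3 (adjusted p = 0.0433) and had 0.27 in KD4 (adjusted p = 0.365). ZNF180, the last gene of the cluster, stood at -0.00 in both knock-downs. Its arrays overlapped, at 9.90, 10.09 and 9.86 in CTL, 10.17, 9.73 and 9.94 in KD3 and 9.98, 9.99 and 9.88 in KD4. ZNF285, its neighbour, went the other way, with -0.26 in KD3 (adjusted p = 0.16) and a fall of 0.38 in KD4 (adjusted p = 0.0432). Over the 5 nearest tested coding genes on each side of the cluster, the median was -0.217 in KD3 and -0.136 in KD4, and 0 of the 10 rose by limma, where 9.48% and 13.4% of all tested genes did. At an unadjusted p under 0.05, 4 and 3 of them differed in either direction, in KD3 and KD4. Of all 26856 tested genes, 8740 and 10729 did. CADM4 had 0.64 in KD3, every KD3 array being above every CTL array, but did not pass (adjusted p = 0.155), with 7.06 on KD3 replicate 1 beside 5.89 and 5.83 on the other KD3 arrays. PLAUR, the urokinase receptor, and BCL3, an NF-kappa-B cofactor, fell in each knock-down, by 0.57 and 0.77 in KD3 and by 0.52 and 0.64 in KD4, and BCAM fell by 0.69 in KD3.

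**Figure D5:**
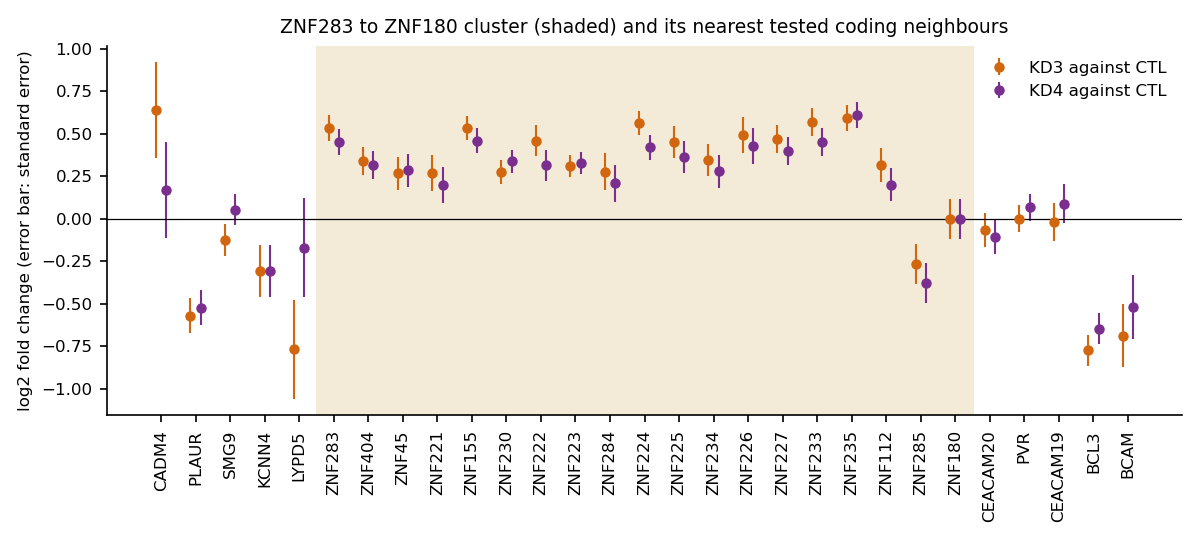
Log2 fold change against CTL (error bar: standard error of the limma fit, 3 arrays per group) of the 19 tested genes of the ZNF283-ZNF180 cluster in chromosome order (shaded) and of the 5 nearest tested coding genes on either side. The points of ZNF283 to ZNF112 lie between 0.20 and 0.61, ZNF285 and ZNF180 lie at or below 0, and the neighbours lie on both sides of 0.

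Most genes of the cluster that had a promoter sequence also share a short motif before their start sites. In the 250 bases before the annotated start (RefSeq, GRCh38.p14), the letters TTCTGGGAA, or TTCCCAGAA on the other strand, were found in 12 of the 15 cluster genes with a promoter sequence (80%), in 1 to 4 copies. These letters are the core of the element bound by ZNF143 (STAF), itself a zinc finger activator encoded on another chromosome. They were found in 0.991% of the 15843 coding genes with a sequence, in 5.05% of ZNF genes on other chromosomes, in 0 of 62 genes of 19p and in 15.2% of 132 genes of 19q. The motif was chosen after these sequences had been read, and a match is a description, not a binding site. Since such clusters arose by tandem duplication, matches in neighbouring genes cannot be counted as independent. The promoters below are shown for a gene at the start of the cluster, ZNF224, ZNF226 and ZNF235, all of which rose, and for ZNF180, which did not pass the test; bases are in lower case with the motif in capitals, written from 5′ to 3′ on the strand of the gene.
ZNF283, chr19:43827071-43827320, plus strand: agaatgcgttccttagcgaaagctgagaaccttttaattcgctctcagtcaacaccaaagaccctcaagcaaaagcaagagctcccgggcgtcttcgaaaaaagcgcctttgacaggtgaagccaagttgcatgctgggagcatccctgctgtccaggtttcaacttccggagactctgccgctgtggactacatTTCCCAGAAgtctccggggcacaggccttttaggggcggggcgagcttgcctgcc
ZNF224, chr19:44094111-44094360, plus strand: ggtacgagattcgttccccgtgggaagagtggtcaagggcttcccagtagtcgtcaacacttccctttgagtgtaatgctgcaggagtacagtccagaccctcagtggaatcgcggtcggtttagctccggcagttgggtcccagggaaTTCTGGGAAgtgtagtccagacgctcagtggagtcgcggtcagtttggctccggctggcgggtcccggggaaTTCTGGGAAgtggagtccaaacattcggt
ZNF226, chr19:44164850-44165099, plus strand: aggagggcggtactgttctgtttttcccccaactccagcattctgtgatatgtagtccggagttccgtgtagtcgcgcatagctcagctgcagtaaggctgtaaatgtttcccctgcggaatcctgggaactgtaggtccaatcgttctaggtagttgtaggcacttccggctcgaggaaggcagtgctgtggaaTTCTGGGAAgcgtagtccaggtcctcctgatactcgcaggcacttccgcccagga
ZNF235, chr19:44305026-44305275, minus strand: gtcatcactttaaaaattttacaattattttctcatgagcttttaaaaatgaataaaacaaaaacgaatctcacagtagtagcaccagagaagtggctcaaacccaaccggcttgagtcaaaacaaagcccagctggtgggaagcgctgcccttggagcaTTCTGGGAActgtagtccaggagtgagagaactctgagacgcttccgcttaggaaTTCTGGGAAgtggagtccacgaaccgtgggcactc
ZNF180, chr19:44500523-44500772, minus strand: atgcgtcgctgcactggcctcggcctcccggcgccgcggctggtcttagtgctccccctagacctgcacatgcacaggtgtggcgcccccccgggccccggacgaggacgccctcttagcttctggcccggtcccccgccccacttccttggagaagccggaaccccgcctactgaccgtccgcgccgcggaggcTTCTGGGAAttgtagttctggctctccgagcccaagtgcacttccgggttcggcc

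In the promoters of ZNF224 and ZNF235 the motif stands in duplicate, and in ZNF226 and ZNF180 it is single. The core was absent from this window in ZNF404, which rose, in ZNF45, which rose in KD3 by its second probe only, and in ZNF285, which fell in KD4, while ZNF155 was not among the sequences. The 12 cluster genes that hold it had median fold changes of 0.456 in KD3 and 0.351 in KD4, and the 3 without it had 0.268 and 0.285. The 8 zinc finger genes that hold it elsewhere on chromosome 19 had medians of 0.107 and 0.0417, next to 0.108 and 0.137 for the 171 without it outside the cluster. The motif had been chosen after the sequences were read, and the smaller sides of these splits hold only 3 and 8 genes. Whether the motif has a part in the shifts was not tested. ZNF143 had fold changes of 0.16 in KD3 (adjusted p = 0.301) and 0.30 in KD4 (adjusted p = 0.054). For comparison, the ETS core CCGGAA, on either strand, was in 40.7% of the 194 zinc finger genes with a sequence and in 19.3% of all coding genes, and the YY1 motif AANATGGC was in 7.73% and 3.65%. The ETS core cannot share bases with the ZNF143 core, while the YY1 motif can share its outer A letters.

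By the mean of both fold changes, among genes that rose in each knock-down and were well above background on all 9 arrays, the 19q genes highest in the ranking were ZNF805 and ZNF264, which lie together in the ZNF264-ZNF446 cluster. ZNF805 stood at 7.52, 7.79 and 7.18 in CTL, 8.35, 8.34 and 8.22 in KD3 and 8.19, 8.19 and 8.19 in KD4. Its CTL arrays varied more than those of either knock-down, and the groups did not overlap. It rose by 0.81 in KD3 (standard error 0.136, adjusted p = 0.00425) and 0.70 in KD4 (adjusted p = 0.00621). ZNF264 stood at 10.03, 10.13 and 10.19 in CTL, 10.81, 10.65 and 10.48 in KD3 and 10.93, 10.67 and 10.85 in KD4. It rose by 0.53 (standard error 0.105, adjusted p = 0.00895) and 0.71 (adjusted p = 0.00172), all knock-down arrays being higher. In the ZNF565-ZNF573 cluster, ZNF568, a KRAB gene needed for placental and embryonic growth in the mouse, rose by 0.56 in KD3 (adjusted p = 0.0161) and had 0.35 in KD4 (adjusted p = 0.0681, and 0.039 without KD3 replicate 1).

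On 19p, by the same ranking, ZNF682 was followed by ZNF559, ZNF442, ZNF101 and ZNF823. ZNF559 stood at 7.54, 7.69 and 7.38 in CTL, 7.90, 8.05 and 7.93 in KD3 and 8.03, 8.23 and 8.05 in KD4, and rose by 0.42 (adjusted p = 0.0176) and 0.57 (adjusted p = 0.00348). ZNF442 rose by 0.46 and 0.38, ZNF101 by 0.36 and 0.41, and ZNF823 by 0.40 and 0.35 in KD3 and KD4, with adjusted p-values from 0.00395 to 0.0203. Some of these no longer passed with 1 array left out, which also leaves fewer arrays for the test. Over those fits the fold change ran from 0.3453 to 0.4992 for ZNF559 in KD3. It ran from 0.3244 to 0.4031 for ZNF101 in KD3 and from 0.3300 to 0.4469 for ZNF442 in KD4. ZNF559 in KD3 did not pass without KD3 replicate 2 or CTL replicate 3 (adjusted p = 0.0635 and 0.0539), ZNF101 in KD3 without KD3 replicate 2 (0.0516), and ZNF442 in KD4 without KD4 replicate 1 or 2 or CTL replicate 3 (0.0655, 0.0709 and 0.0679). In each of these genes every knock-down array lay above every CTL array, as in 18.2% of all tested genes in KD3 and 23.1% in KD4. The genes were picked for having risen in each knock-down, so that this is no separate support.

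Fewer genes fell, and they were scattered over the chromosome. ZNF536, a regulator of neuronal differentiation without a KRAB domain, lies outside the clusters on 19q. Its log2 signal was 7.80, 7.89 and 7.98 in CTL, 7.34, 7.31 and 7.22 in KD3 and 7.05, 7.25 and 7.08 in KD4. It fell by 0.60 in KD3 (standard error 0.0815, adjusted p = 0.00151) and by 0.76 in KD4 (adjusted p = 0.00036), all knock-down arrays being lower. ZNF606 fell by 0.49 and 0.58, and ZNF473, which takes part in the 3′ processing of histone messages, by 0.45 and 0.51. In KD3, ZNF473 did not pass without KD3 replicate 1 or 3 or CTL replicate 1 or 3 (adjusted p = 0.0641 to 0.0768). The pseudogene ZNF542P fell by 0.63 and 0.38, but within slide 2 its values were -0.35 and -0.24, and in KD4 it did not pass without KD3 replicate 3, any of the KD4 arrays, or CTL replicate 2 or 3 (adjusted p = 0.0571 to 0.112). For ZNF544 the brightest probe fell by 0.37 and 0.26, whereas the other probe had 0.06 in KD3 (adjusted p = 0.691) and rose by 0.29 in KD4 (adjusted p = 0.0338), so that its probes disagreed. The fall of the brightest probe in KD4 did not pass without KD4 replicate 1 or 3 (adjusted p = 0.0509 and 0.0525).

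On 19p, ZNF627 and ZNF253 fell in each knock-down. ZNF627 fell by 0.33 in KD3 (adjusted p = 0.022) and by 0.49 in KD4 (adjusted p = 0.00284), and in KD3 it did not pass without KD3 replicate 2 or 3 or CTL replicate 2 (0.068, 0.0655 and 0.0583). ZNF253 stood at 5.58, 5.63 and 5.35 in CTL, 5.10, 4.64 and 4.80 in KD3 and 5.14, 4.97 and 4.41 in KD4. It fell by 0.67 (adjusted p = 0.0411) and 0.68 (adjusted p = 0.0303), but with normexp background correction its values were -0.21 (adjusted p = 0.083) and -0.29 (adjusted p = 0.0184). It did not pass in KD3 without KD3 replicate 2 or 3, KD4 replicate 2 or any 1 of the CTL arrays (adjusted p = 0.0564 to 0.124), nor in KD4 without KD4 replicate 2 or 3 or CTL replicate 1 or 2 (0.0517 to 0.0839). This fall was thus smaller with normexp correction, as for ZNF347, where the offset draws the folds of dim probes toward 0.

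Of 12 zinc finger genes listed for a known role, 11 were tested. ZNF91, which represses SVA elements, had -0.08 in KD3 and -0.27 in KD4 (adjusted p = 0.138, and 0.0352 without CTL replicate 1). ZNF93, which represses LINE-1 elements, had 0.00 in KD3 and -0.06 in KD4. ZNF274, which helps to place repressive chromatin on the zinc finger clusters themselves, had -0.14 and 0.05. The imprinted gene ZNF331 had 0.11 and -0.01, ZNF417 had 0.19 and 0.18, and ZNF587, its near-identical paralog, had 0.14 and 0.18. ZNF350, a partner of BRCA1, rose by 0.28 in KD3 (adjusted p = 0.0443) and had 0.13 in KD4, but in KD3 it did not pass without any 1 of the CTL arrays (adjusted p = 0.0758 to 0.107), without KD3 replicate 1 or 2 (0.117 and 0.0961) or without KD4 replicate 1 or 2 (0.0638 and 0.067). ZNF154 was well above background on 8 arrays, with 0.18 and -0.22, and ZNF671 was too dim to test. In all, ZNF224, ZNF350 and ZNF568 rose in KD3 and ZNF224 in KD4, and ZNF473 fell in each, where 9.48% of all tested genes rose and 10.4% fell in KD3, and 13.4% and 14.7% in KD4.

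Genes of the machinery through which KRAB zinc finger proteins act were also read. Of a list of 24 co-repressor and heterochromatin genes, all tested, 2 rose (8.33%) and 1 fell (4.17%) in KD3, and 4 rose (16.7%) and 2 fell (8.33%) in KD4, beside 9.48% and 10.4% of all tested genes in KD3 and 13.4% and 14.7% in KD4. TRIM28 had -0.11 (adjusted p = 0.688) and 0.10 (adjusted p = 0.653), and SETDB1 had 0.03 and 0.03. TASOR, a subunit of the HUSH silencing complex, rose by 0.42 (adjusted p = 0.0096) and 0.44 (adjusted p = 0.0055), and CBX1, which encodes HP1 beta, by 0.31 and 0.33. In KD3 the DNA methyltransferase gene DNMT3B fell by 0.35, and in KD4 CHD3 rose by 0.26 while CBX5 and HDAC2 fell by 0.47 and 0.23. LRIF1, whose protein binds both SMCHD1 and HP1, had 0.15 in KD3 (adjusted p = 0.336) and rose by 0.77 in KD4 (standard error 0.1, adjusted p = 0.000941). The difference of KD4 over KD3 in LRIF1 was itself past the threshold (0.61, adjusted p = 0.0211).

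A further list held zinc finger genes of chromosome 19 that carry another symbol. Of 15 listed, 14 had a probe and 12 were tested, ZIM3 and ZSCAN4 being too dim. In KD3, ZFP82 and ZIK1 rose by 0.30 and 0.31, and ZFP14 and ZSCAN18 fell by 0.38 and 0.26. In KD4, 5 rose, namely ZFP82 (0.34), ZSCAN5A (0.51), PEG3 (0.41), ZIK1 (0.55) and ZSCAN22 (0.36), and ZFP14 fell by 0.52. PEG3, a maternally imprinted gene, rose in KD4 with an adjusted p of 0.0247 and had 0.12 in KD3 (adjusted p = 0.517). Among all tested genes 9.48% rose and 10.4% fell in KD3, and 13.4% rose and 14.7% fell in KD4. The median of the 12 was 0.0898 in KD3 and 0.159 in KD4.

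The knock-downs were also compared with each other. Between KD4 and KD3, 2.49% of all 26856 tested genes differed past the adjusted p by limma, and 5113 had an unadjusted p under 0.05. Of the 219 zinc finger genes, 0 passed the adjusted p and 25 had an unadjusted p under 0.05. The nearest was ZNF793, chosen here for that value, at 7.45, 7.71 and 7.85 in CTL, 7.92, 7.91 and 7.44 in KD3 and 7.0025, 6.41 and 7.07 in KD4. It fell by 0.84 in KD4 against CTL (adjusted p = 0.0161) and had 0.09 in KD3, and its KD4 arrays lay below all others, with a difference of -0.93 from KD3 (adjusted p = 0.0555). ZNF829 had a high KD3 mean through a single array (6.05, 5.96 and 7.90, against 5.28, 5.63 and 5.67 in CTL), and its fold change of 1.11 did not pass (adjusted p = 0.122). The median difference of KD4 over KD3 was 0.00931 over the 219 genes and 0.118 over the other genes of chromosome 19.

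Several probes were available for part of the family. Of 63 genes with more than 1 tested probe, 45 had all probes on the same side of 0 in KD3 and 45 in KD4. Where the brightest probe passed the test, in 14 genes in KD3 and 16 in KD4, the other probes had the same sign in 13 and 15, and all probes passed in 10 and 11. In other genes a dimmer probe passed where the brightest did not. Examples in KD4 are ZNF497 (-0.75, adjusted p = 0.00396, brightest 0.01) and ZNF546 (0.59, adjusted p = 0.000797, brightest 0.03). The counts and medians given so far for gene groups use the brightest probe alone. Zinc finger genes of a cluster are close in sequence, and since no probe sequences were used here, signal shared between near-identical genes was not tested.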

How the data were processed

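HEK293 lines KD3 (shRNA 3), KD4 (shRNA 4) and CTL (shRNA NC5) were each measured on 3 arrays. The authors deposited spot intensity values per array (Agilent Feature Extraction 10.10.1.1), already background-subtracted and detrended, on an array designed on hg19. They also deposited log2 values, quantile normalized in GeneSpring (the methods write quintile), which were used as an alternative; the median difference from the values used here was 0.0745. Control spots and 260 to 634 outlier spots of 58717 per array were left out, log2 signals were quantile normalized (limma 3.58.1, R 4.3.3) and spots of a probe averaged. Of 42405 probes, 21 without a value were dropped, 32276 tested and 25422 named by RefSeq accession through a table of GRCh38.p14, used for names and gene order. Groups were compared in a single limma fit over 9 arrays (lmFit, eBayes), with Benjamini-Hochberg adjustment over all tested probes. The fit was tested on simulated data.

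Genes were named by rule: those past an adjusted p of 0.05 and a fold of 1.8, the 5 per arm that rose or fell most in each knock-down, and fixed lists of known roles (12), co-repressors (24) and other zinc finger genes (15). The members and lists were chosen with earlier results of these data known, the ZNF283-ZNF180 cluster and the promoter motifs after their values or sequences were seen. Promoters are from RefSeq, with 194 of 219 tested genes matched. Alternatives were other scaling, normexp correction (offset 50), the authors' values, other filters, the methods' t-test, pairs of groups fitted alone, replicate or slide as a block, single slides, all probes of a gene, and leaving out each array. The number of arrays limits the precision. Comparisons across cell lines, immunoblots and methylation assays of the study were not analysed here.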

Additional observations from a re-analysis of the deposited data

Results flagged for a closer look

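SMCHD1 itself differed between the knock-downs. The log2 difference of KD4 from KD3 was -0.56 (standard error 0.0897, adjusted p = 0.0195 from limma), found by a direct test of the difference between the 2 hairpins. The KD4 arrays stood at 9.63, 9.80 and 9.77 and the KD3 arrays at 10.40, 10.16 and 10.32, so that all KD4 arrays were lower. No zinc finger gene of chromosome 19 named here met any of the conditions for a closer look.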

How the results depend on the processing

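The medians of 19p, 19q and the ZNF283-ZNF180 cluster stayed above 0 under the alternatives run. In KD4, however, the 19p median was below that of all tested genes within slide 1 (0.0315 beside 0.0434). The same held without CTL replicate 1 (0.0325 beside 0.0385). Apart from all tested genes, medians of the other clusters, gene groups and motif sets were not recomputed. Calls with the 1.8-fold threshold rest on very few genes. The 1 call in KD3 became 0 with normexp correction, without a filter on dim probes, with probes required on all 9 arrays, with the methods' t-test (adjusted or not), with pairs of groups fitted alone and with the slide as a block, and became 2 when any tested probe counted; the gene called in both knock-downs became 0 in all of these except the last. The 2 calls in KD4 became 1 with normexp correction, the strict filter and either t-test. The 0 calls between KD4 and KD3 became 1 with the authors' log2 values, the strict filter and the unadjusted t-test.

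Without the fold threshold, the adjusted t-test left 2 genes in KD3 (1 higher, 1 lower) in place of 53, and 16 in KD4 (13 higher, 3 lower) in place of 60, with 1 and 3 in the ZNF283-ZNF180 cluster in place of 13 and 13. Pairs of groups fitted alone left 28 higher in KD3. Normexp correction gave a 19q median of 0.1281 in KD4. Within slide 2 the medians in KD3 were 0.1464 (19p) and 0.4525 (cluster) and in KD4 0.1608 and 0.3928; within slide 1 the 19p median was 0.0315 in KD4. SMCHD1 in KD3 was -0.84 within slide 2 and -1.14 within slide 1. The mean of all probes gave a cluster median of 0.4530 in KD3.

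Leaving out 1 array gave 0 to 2 calls in KD3, 2 to 4 in KD4, 0 to 1 in both and 0 between KD4 and KD3. Genes past the adjusted p ran from 39 to 48 in KD3 (29 to 40 higher, 6 to 10 lower) and 37 to 63 in KD4 (31 to 52 higher, 6 to 11 lower), the KD4 count being lowest, 37, without KD4 replicate 3, which also left 8 genes of the cluster; without KD4 replicate 1, 33 were higher. Without KD3 replicate 3, 6 were lower in KD3. In the cluster the range was 10 to 13 in KD3 and 8 to 13 in KD4. Medians in KD3 ran from 0.0255 to 0.1001 (19p), 0.1133 to 0.1736 (19q) and 0.3127 to 0.4076 (cluster), and in KD4 from 0.0325 to 0.1185, 0.1324 to 0.1902 and 0.3146 to 0.3592. The lowest 19p medians, 0.0255 and 0.0325, came without CTL replicate 1. SMCHD1 ran from -1.0238 to -0.9045 in KD3 and from -1.5635 to -1.4775 in KD4.

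Of 9 same-number correlations of deviations, 3 were over 0.1 (range -0.08 to 0.14), while pairs with different numbers ran from -0.14 to 0.14. Many same-number arrays also shared a slide, so that pairing by replicate number was not settled. With the replicate number as a block, 44 genes passed in KD3 (35 higher, 9 lower), 58 in KD4 (46 higher, 12 lower), and 11 and 12 in the cluster; calls stayed at 1 and 2. The medians kept their values, 0.0753, 0.1395 and 0.3463 in KD3 and 0.0838, 0.1774 and 0.3266 in KD4. Of the named genes, ZNF350 and ZNF627 in KD3 and ZNF542P in KD4 no longer passed under it. With the slide as a block, ZNF347 and ZNF350 in KD3 and ZNF542P in KD4 no longer passed. Without a filter on dim probes, ZNF347, ZNF350 and ZNF253 in KD3 and ZNF253 and ZNF542P in KD4 no longer passed. With the adjusted t-test, 33 values of named genes no longer passed. Signal near background limits the size of the folds of ZNF347 and ZNF253.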
